A study of Mus musculus with 34 samples.

Results

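The 44 features described here were both mature arms of the microRNA miR-210 and 42 genes of the hypoxia response and of glycolysis, out of 38835 features in the series (1525 microRNAs and 37310 genes). They were chosen by name, with earlier results of these data known. The list held hypoxia-inducible factor (HIF) subunits and oxygen sensors, known HIF-linked genes, glucose and lactate transporters, glycolytic enzymes, lactate dehydrogenases and pyruvate dehydrogenase kinases. Shares and medians of members set beside those of all genes below therefore describe the list and are not a test of it. Reads were counted in CAD cells, a mouse catecholaminergic neuronal line whose source is labelled neuroblastoma. The cells were grown in DMEM/F12 medium with 10% fetal bovine serum or in the same medium without serum. A small RNA experiment compared wild-type (WT) CAD cells at day 4 without serum with WT cells in serum, with 3 libraries each. The first RNA-seq experiment compared day 1 without serum with serum in a line labelled as a mir-138 double knockout (DKO) and in WT cells, and each of its 4 groups had 2 libraries. The second compared WT cells at day 4 without serum with WT cells in serum, with 3 libraries each. The third used DKO-labelled cells throughout, with 2 libraries a group. These received a miR-138 mimic or a miR-137 mimic at 3 nM, or pUC19 plasmid DNA as the control. No group received a control RNA. In comparisons of a mimic with pUC19, the sequence of the mimic and the use of RNA in place of plasmid DNA cannot be told apart. Serum was removed 48 hours after transfection, and RNA was taken at removal (called serum below) and 2 days later. A last serum group of DKO-labelled cells had no transfection named in its labels. The titles of that group, and of the second experiment's WT cells, carry a number 2 whose meaning the labels do not give, so whether these are the same clone or passage as elsewhere is not known. The labels do not say whether the DKO line was 1 clone or whether libraries came from separate cultures, so p-values measure the spread between libraries only, which may be technical.

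HIF is a transcription factor made of an oxygen-labile alpha subunit and a stable partner. In oxygen, prolyl hydroxylases mark the alpha subunit for the VHL ubiquitin ligase, which sends it to the proteasome, so HIF activity is largely set by protein stability and not by the level of the Hif1a message. HIF binds a short motif and drives genes for glucose uptake, glycolysis, lactate export, blood vessel growth, pH control and mitophagy, and it drives the gene of miR-210, the microRNA best known for its rise in hypoxia. Neither oxygen nor HIF protein was measured in the data used here.

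The mature arms of miR-210 are shown because they are the members read as small RNA, and the capitals mark the seed, bases 2 to 8, which does most of the target pairing.
mmu-miR-210-3p: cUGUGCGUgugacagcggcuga
mmu-miR-210-5p: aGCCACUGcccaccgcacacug
Both are RefSeq sequences placed on the minus strand of GRCm38.p6, at chr7:141221407-141221428 for the 3p arm and chr7:141221445-141221466 for the 5p arm, within a hairpin of 110 bases. No other of the 1738 mature mouse microRNAs in that table had either seed.

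Promoters of Aldoc, Pfkfb4, Kdm3a and Ankrd37 are shown because, of the members called in the same direction in WT cells at day 1 and at day 4, these 4 had the largest smaller change of the pair (2.79, 1.25, 1.04 and 0.96 log2 units). All 4 were also higher in the other withdrawal comparisons below. Each run is the RefSeq sequence from 250 bases before to 50 bases after the annotated start, 5′ to 3′ on the gene's strand, in GRCm38.p6. Aldoc lies at chr11:78322823-78323122 on the plus strand, Pfkfb4 at chr9:108991652-108991951 on the plus strand, Kdm3a at chr6:71632868-71633167 on the minus strand and Ankrd37 at chr8:45999801-46000100 on the minus strand. For genes with several annotated starts the first window of the table was taken, which for Aldoc was 1 of 2 and for Kdm3a 1 of 3. Capitals mark the HIF core motif in its ACGTG and GCGTG forms, or their reverse complements CACGT and CACGC.
Aldoc: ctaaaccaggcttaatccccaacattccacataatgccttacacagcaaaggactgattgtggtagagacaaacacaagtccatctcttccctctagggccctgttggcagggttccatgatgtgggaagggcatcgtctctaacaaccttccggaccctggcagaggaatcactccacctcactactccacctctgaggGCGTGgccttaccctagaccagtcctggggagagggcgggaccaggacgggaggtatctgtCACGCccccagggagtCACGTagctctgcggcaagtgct
Pfkfb4: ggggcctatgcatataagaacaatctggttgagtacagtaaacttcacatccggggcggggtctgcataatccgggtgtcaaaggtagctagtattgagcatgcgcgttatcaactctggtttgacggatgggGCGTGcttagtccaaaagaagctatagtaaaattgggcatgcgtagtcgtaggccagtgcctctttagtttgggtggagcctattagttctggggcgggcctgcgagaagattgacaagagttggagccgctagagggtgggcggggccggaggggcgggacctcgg
Kdm3a: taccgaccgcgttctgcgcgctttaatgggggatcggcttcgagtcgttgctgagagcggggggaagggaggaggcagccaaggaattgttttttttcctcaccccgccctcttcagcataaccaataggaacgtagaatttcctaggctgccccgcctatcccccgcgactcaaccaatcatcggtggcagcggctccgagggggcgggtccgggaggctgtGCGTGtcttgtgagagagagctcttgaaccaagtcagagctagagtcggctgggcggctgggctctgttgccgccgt
Ankrd37: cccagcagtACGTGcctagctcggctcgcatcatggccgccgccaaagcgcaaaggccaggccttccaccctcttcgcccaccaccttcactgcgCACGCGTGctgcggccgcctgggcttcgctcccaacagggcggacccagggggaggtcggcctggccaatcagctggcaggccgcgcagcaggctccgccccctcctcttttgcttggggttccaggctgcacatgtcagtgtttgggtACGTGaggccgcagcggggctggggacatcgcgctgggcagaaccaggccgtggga
The other Aldoc window held 1 GCGTG form and no ACGTG form, and the other Kdm3a windows held neither. With the first window of each gene, at least 1 form on either strand was found in 29 of the 38 member promoters in the table, which is 76.3%, against 64.0% of the promoters of genes tested in the second experiment and 43.8% of all promoters of the same length. ACGTG alone was found in 52.6% of member promoters, 25.9% of tested genes and 19.7% of all promoters, and GCGTG in 55.3%, 52.6% and 32.5%. The member windows held 62.5% G and C on average, those of tested genes 61.4% and all windows 53.6%. These are matches of letters, not sites shown to bind HIF, and the 2 overlapping matches of Ankrd37 are a single stretch of capitals.

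Libraries held 1423978 to 2763553 assigned microRNA reads, while gene-assigned reads per RNA-seq library were 22359075 to 41505181 (first experiment), 19900317 to 28631969 (second experiment) and 12740836 to 25582125 (the third experiment). Values are read counts per 1000000 assigned reads (CPM), scaled within an experiment. "Passed" means an adjusted p below 0.05 in edgeR's quasi-likelihood test, with the Benjamini-Hochberg method applied over every feature tested in that experiment. The ± after a log2 fold change is a standard error worked back from that test. It is the absolute change divided by the square root of the F statistic. The DKO label could not be checked on mature miR-138, which was read in WT cells only. Reads of the gene Mir138-1, which are not counts of mature miR-138, were more numerous in the DKO-labelled libraries of the first experiment. There were 273 and 343 at day 1 and 242 and 217 in serum, against 15 and 37 in WT libraries at day 1 and 18 and 18 in serum. In raw counts, not scaled for depth, WT libraries of the second experiment had 11 to 39 and DKO-labelled libraries of the third 15 to 43. The counts of the third thus overlapped those of WT cells and lay far below the DKO-labelled libraries of the first. Most libraries of the third held fewer reads in all, and its reads were single. Whether Mir138-1 gene reads bear on the loss of mature miR-138 was not tested. Mir138-2 had 0 reads in all 28 RNA-seq libraries. With the label unchecked, the line is called DKO-labelled. The summed CPM of 8 neuronal genes (Th, Dbh, Tubb3, Snap25, Chga, Chgb, Stmn2, Nefl) was 82.6 to 94.9 in DKO-labelled cells at day 1 and 57.8 to 58.5 in serum, with Th at 0 in serum, against 4010 to 4130 in WT cells at day 1 and 1580 to 1630 in serum. In serum of the third experiment the sum was 56.9 to 61.9 in the untransfected group and 53.1 to 55.8 with pUC19. Over all its groups it ran from 33 (miR-138 mimic in serum) to 301 (miR-137 mimic at day 2). In the second experiment the sum was 7620 to 9720 at day 4 and 1890 to 1960 in serum. A genotype field of that experiment's samples reads DKO where titles and design text read WT, and the libraries are treated as WT.

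In WT cells at day 4 without serum, both arms of miR-210 were far above their level in serum. miR-210-3p had 4904, 5542 and 5198 CPM at day 4, against 274, 304 and 307 CPM in serum. The lowest day 4 library was many times the highest serum library. The mean was 17.7-fold higher, with a log2 fold change of 4.15 ± 0.11 (adjusted p = 2.89e-06, n = 3 each). miR-210-5p, the less abundant arm, had 247, 269 and 286 CPM at day 4, against 17.4, 13.9 and 23.0 CPM in serum, a log2 fold change of 3.88 ± 0.20 (adjusted p = 5.65e-05). Of the 715 microRNAs tested, 35.8% passed (19.6% higher and 16.2% lower). The arms kept a similar proportion: the 3p to 5p ratio was 19.8, 20.6 and 18.2 at day 4 and 15.7, 21.9 and 13.3 in serum, and these overlap. Among all microRNAs miR-210-3p ranked 57, 55 and 54 by count at day 4, against 257, 234 and 239 in serum. It made up 0.441%, 0.504% and 0.477% of assigned reads at day 4 and 0.0309%, 0.0322% and 0.0338% in serum. Scaled by library totals alone, which moved the median of all microRNAs to -0.39, the log2 fold changes were 3.87 for the 3p arm and 3.60 for the 5p arm. In bulk samples such as these, fewer cells of a type and less RNA per cell cannot be told apart.

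**Figure D1:**
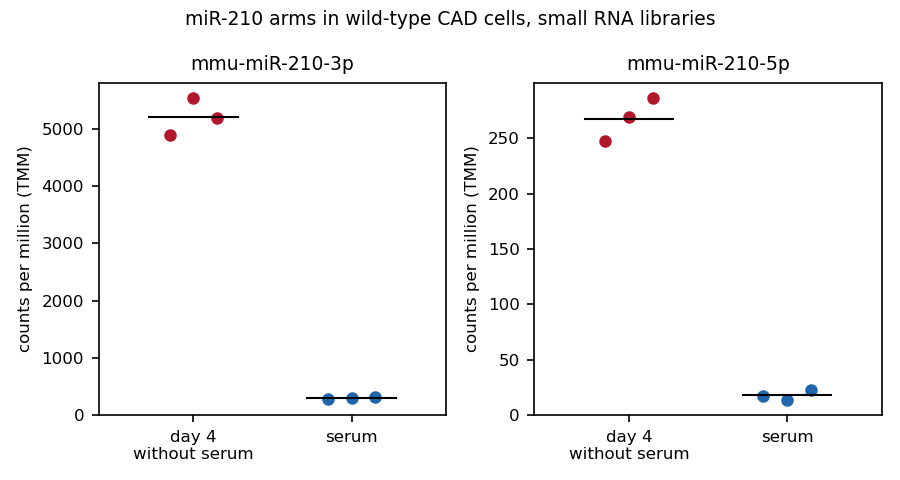
CPM of the 3p and 5p arms of miR-210 in WT cells at day 4 without serum and in serum; points are the 3 libraries of a group and bars their mean. For both arms all 3 day 4 libraries lie far above all 3 serum libraries, and the 3p arm is the more abundant in both groups.

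The mRNA of WT cells at day 4 showed the same direction for most of the HIF-linked genes. Of 41 member genes tested, 30 were higher and 4 lower at day 4, where 70.9% of the 13283 genes tested passed (36.2% higher and 34.7% lower). The members' median log2 fold change was 0.98, against 0.043 over all genes tested. All 11 HIF-linked genes outside glycolysis were higher, with a median of 2.65. So were 13 of 15 glycolytic enzymes, with a median of 0.75.

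Among the factors and sensors, 2 of 7 were higher and 1 lower at day 4. Hif1a, the oxygen-labile subunit, had 121, 131 and 109 CPM at day 4, against 191, 194 and 173 CPM in serum. Its message was lower in all 3 day 4 libraries, by a log2 fold change of -0.63 ± 0.085 (adjusted p = 1.49e-05). Arnt, the partner subunit, and Egln2, Vhl and Hif1an, which mark or recognise the alpha subunit, did not pass (log2 fold changes -0.14 to 0.22). The prolyl hydroxylases Egln1 and Egln3 were higher, by 0.53 ± 0.10 and 0.38 ± 0.13 (adjusted p = 0.000309 and 0.021), although Egln3 groups overlapped (67.2, 98.7 and 91.7 CPM at day 4, against 71.7, 57.4 and 69.4 CPM in serum). The Egln3 call was lost without replicate 2 or 3 of either group (adjusted p = 0.0544 to 0.154). Epas1, the other alpha subunit, was too low to test in every experiment, with 0, 1 and 7 reads at day 4 and 0, 0 and 9 in serum.

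Outside glycolysis, Ndrg1, a stress-responsive gene, moved the most. It had 25.8, 29.7 and 41.3 CPM at day 4, against 1.05, 0.410 and 0.560 CPM in serum, a log2 fold change of 5.61 ± 0.30 (adjusted p = 1.28e-09). Car9, a membrane carbonic anhydrase that controls pH, had 1.54, 4.53 and 1.75 CPM at day 4, against 0.229, 0.0373 and 0 CPM in serum. It stayed a low-count gene, and its log2 fold change of 4.86 ± 0.89 (adjusted p = 0.000238) is imprecise. Adm, which encodes the vasodilator peptide adrenomedullin, had 11.6, 14.6 and 18.9 CPM at day 4, against 1.23, 0.783 and 1.68 CPM in serum (3.62 ± 0.30, adjusted p = 1.27e-07). The mitophagy receptor Bnip3 had 175, 194 and 240 CPM at day 4, against 30.1, 26.9 and 19.3 CPM in serum (3.00 ± 0.15, adjusted p = 9.79e-10). Its relative Bnip3l had 108, 111 and 138.3 CPM at day 4, against 28.5, 33.3 and 27.3 CPM in serum (2.00 ± 0.12). Genes given by library, here and below, were mostly picked for groups that do not overlap, so their separation follows from that choice. Such groups were found for 75.3% of all genes tested here, and for 63.0% to 83.6% in the other RNA-seq comparisons. Ankrd37, an ankyrin repeat gene, had 24.3, 31.8 and 40.0 CPM at day 4, against 4.25, 5.07 and 4.57 CPM in serum (2.79 ± 0.20). Vegfa, the main growth factor of blood vessels, had 635, 539 and 589 CPM at day 4, against 101, 90.1 and 89.9 CPM in serum (2.65 ± 0.086). Kdm3a, a histone H3 lysine demethylase, had 150, 201 and 197 CPM at day 4, against 45.5, 41.1 and 43.0 CPM in serum (2.08 ± 0.11). The day 4 libraries of these 3 all stood above those in serum, as the choice required. The other 3, Car12 and the collagen prolyl hydroxylase subunits P4ha1 and P4ha2, were higher by 1.23 to 1.54.

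Of the transporters, the lactate exporter Slc16a3 (MCT4) had 417, 414 and 523 CPM at day 4, against 36.2, 21.0 and 30.1 CPM in serum, a log2 fold change of 3.96 ± 0.17 (adjusted p = 1.66e-10). The glucose transporter Slc2a1 (GLUT1) had 97.1, 107 and 130 CPM at day 4, against 54.2, 36.1 and 43.2 CPM in serum (1.32 ± 0.14). Both were higher in each day 4 library than in any serum library, whereas the related lactate transporter Slc16a1 was lower (log2 fold change -0.24 ± 0.089, adjusted p = 0.0292). The Slc16a1 call was lost without replicate 3 of day 4 or replicate 1 of serum (adjusted p = 0.135 and 0.104). In glycolysis, the isozymes typical of brain led. Aldoc, aldolase C, had 260, 156 and 202 CPM at day 4, against 12.6, 7.72 and 10.9 CPM in serum (4.32 ± 0.20, adjusted p = 3.41e-10). Eno2, neuronal enolase, had 373, 219 and 279 CPM at day 4, against 31.6, 27.5 and 30.5 CPM in serum (3.28 ± 0.16, adjusted p = 5.76e-10). Aldoa and Eno1, the broadly expressed isozymes of the same steps, were higher by much less, 0.72 ± 0.088 and 0.47 ± 0.081. Pgk1, phosphoglycerate kinase, had 169, 162 and 208 CPM at day 4, against 95.4, 90.0 and 90.0 CPM in serum (0.97 ± 0.094). Hk2, an inducible hexokinase, went the other way, with 21.5, 44.6 and 60.8 CPM at day 4, against 99.5, 83.3 and 89.2 CPM in serum (-1.09 ± 0.25, adjusted p = 0.00139). Its level was lower in all 3 day 4 libraries, while Hk1 was higher by 0.75 ± 0.079.

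Around pyruvate the members divided. Pdk1, which shuts pyruvate out of mitochondrial oxidation by inhibiting pyruvate dehydrogenase, had 85.8, 115 and 129 CPM at day 4, against 14.3, 12.0 and 13.1 CPM in serum (3.07 ± 0.15, adjusted p = 4.96e-10). Pdk3, another kinase of the same enzyme, was lower (-1.06 ± 0.16, adjusted p = 4.76e-05). Ldha, which makes lactate from pyruvate, had 1093, 1196 and 1446 CPM at day 4, against 1372, 1358 and 1355 CPM in serum. Its groups overlapped and it did not pass (-0.13 ± 0.092, adjusted p = 0.222), and neither did Ldhb (-0.68 ± 0.35, adjusted p = 0.0928).

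**Figure D2:**
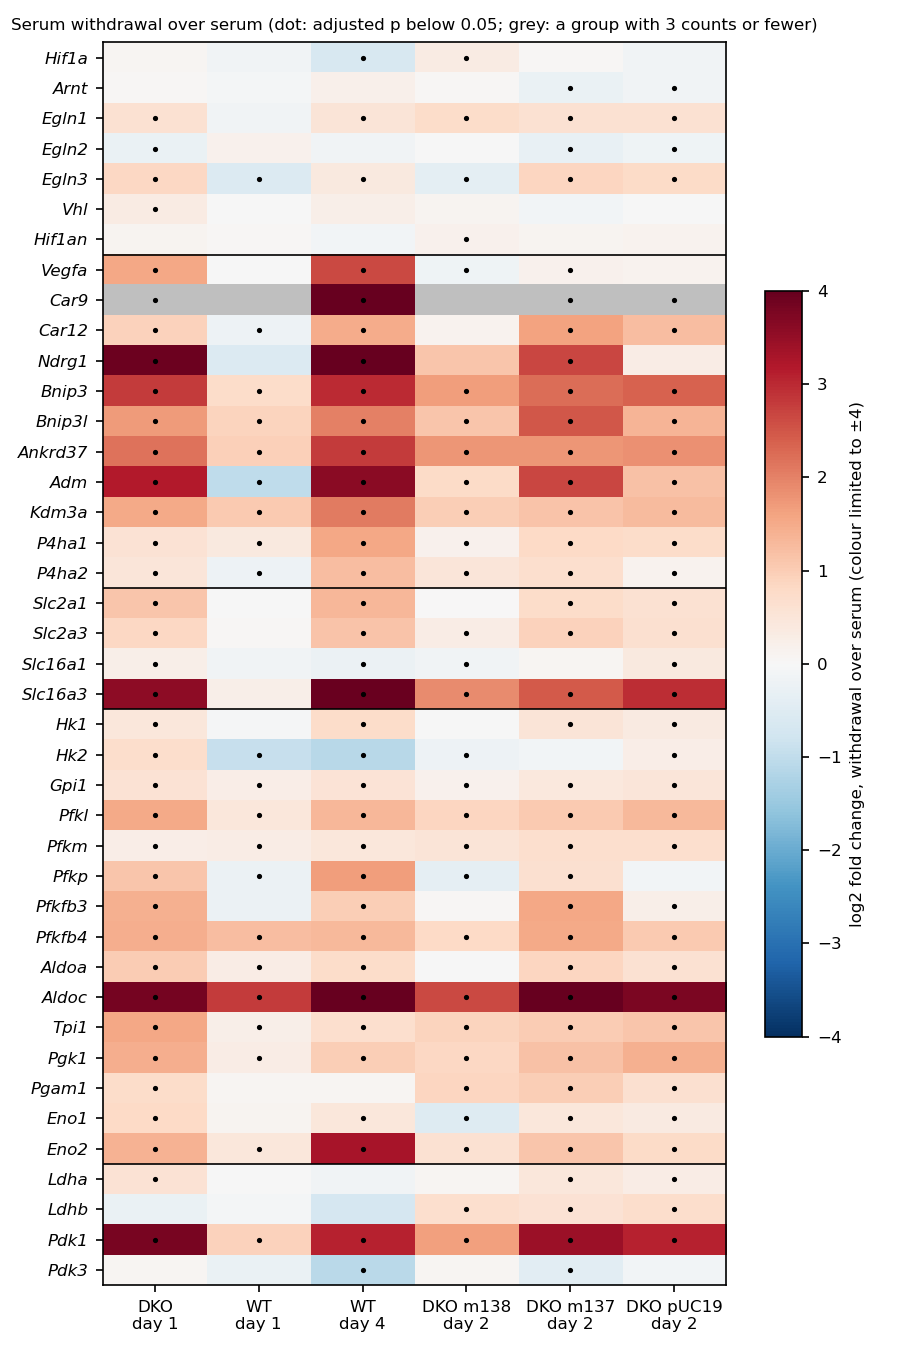
Log2 fold change of each member gene, day without serum over serum, in 6 comparisons (columns: DKO-labelled day 1, WT day 1, WT day 4, and DKO-labelled day 2 with the mimic of miR-138, the mimic of miR-137, or pUC19); rows are grouped by role, a dot marks an adjusted p below 0.05, and grey marks a group with 3 counts or fewer. Colours stop at ±4. The WT day 1 column is paler than the others, and Aldoc, Pdk1, Bnip3, Ankrd37 and Kdm3a are above 0 in every column.

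At day 1 the response of DKO-labelled cells was broad. Of 41 member genes, 35 were higher at day 1 than in serum and 1, Egln2, was lower, where 40.3% of the 13630 genes tested passed (19.9% higher and 20.4% lower). The median member log2 fold change was 0.92, against 0.0096 over all genes tested. All 11 HIF-linked genes outside glycolysis, all 15 glycolytic enzymes and all 4 transporters were higher. Hif1a, Arnt, Hif1an, Ldhb and Pdk3 did not pass. Calls of 4 members were lost without 1 library: Slc16a1 (log2 fold change 0.23, adjusted p = 0.0558 to 0.127 without replicate 1 or 2 of day 1 or replicate 1 of serum), Vhl (0.081 to 0.0972 without the same libraries), Pfkm (0.0519 without replicate 2 of day 1) and Egln2 (0.0566 and 0.131 without replicate 1 and 2 of day 1).

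WT cells at day 1 responded in fewer members. Here 15 of 41 were higher and 6 lower, where 40.7% of genes tested passed (20.4% higher and 20.3% lower), and the median log2 fold change of members, 0.038, lay near that of all genes tested, 0.025. Of the glycolytic enzymes 9 of 15 were higher and 2 lower. Of the HIF-linked genes outside glycolysis 5 were higher and 3 lower, and none of the 4 transporters passed. The genes that were higher by more than 1 log2 unit were Aldoc, Pfkfb4 and Kdm3a. Aldoc had 106 and 98.6 CPM at day 1, against 16.9 and 12.9 CPM in serum (2.79 ± 0.12, adjusted p = 1.46e-09). Pfkfb4, which sets the level of an activator of phosphofructokinase, had 18.3 and 19.2 CPM at day 1, against 6.60 and 9.14 CPM in serum (1.25 ± 0.19, adjusted p = 0.000114). Kdm3a had 109 and 116 CPM at day 1, against 55.3 and 54.2 CPM in serum (1.04 ± 0.071, adjusted p = 9.47e-08). In all 3 the day 1 libraries were the higher ones. Adm was lower at day 1, with 1.99 and 2.44 CPM against 4.12 and 4.90 CPM in serum (-1.02 ± 0.29, adjusted p = 0.0122). That call was lost without replicate 2 of WT serum or without replicate 1 of WT day 1 (adjusted p = 0.0902 and 0.0921).

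Set side by side, the same genes showed where the responses parted. Ndrg1 had 5.84 and 7.12 CPM in DKO-labelled cells at day 1, against 0.564 and 0.249 CPM in DKO-labelled serum, and it had 2.08 and 2.41 CPM in WT cells at day 1, against 4.08 and 2.54 CPM in WT serum. The log2 fold change was 3.92 ± 0.41 in DKO-labelled cells (adjusted p = 5.31e-06) and -0.55 ± 0.36 in WT cells, which did not pass (adjusted p = 0.244). The responses themselves differed by 4.47 ± 0.54 (adjusted p = 0.000142, interaction term). Adm, at 10.5 and 7.63 CPM in DKO-labelled cells at day 1 and 1.20 and 0.783 CPM in serum, differed by 4.18 ± 0.42 (adjusted p = 2.61e-05). For both, the DKO-labelled serum libraries were the lowest of the 4 groups and the DKO-labelled day 1 libraries the highest.

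Slc16a3 had 333 and 309 CPM in DKO-labelled cells at day 1, against 26.4 and 27.9 CPM in serum, and 105 and 115 CPM in WT cells at day 1, against 106 and 81.8 CPM in serum. The response was 3.57 ± 0.11 in DKO-labelled cells and 0.23 ± 0.10 in WT cells, where the groups overlapped and the gene did not pass (adjusted p = 0.0845). Pdk1 had 78.6 and 75.2 CPM in DKO-labelled cells at day 1, against 6.45 and 4.38 CPM in serum, and 43.3 and 47.0 CPM in WT cells at day 1, against 26.8 and 21.4 CPM in serum. It passed in both, by 3.80 ± 0.16 and 0.91 ± 0.14 (adjusted p = 7.37e-10 and 0.000133). Bnip3 did so too, at 188 and 184 CPM in DKO-labelled cells at day 1 against 27.6 and 25.6 CPM in serum, and 85.7 and 93.9 CPM in WT cells at day 1 against 58.3 and 49.5 CPM in serum. Vegfa had 434 and 443 CPM in DKO-labelled cells at day 1, against 160 and 143 CPM in serum, and 159 and 168 CPM in WT cells at day 1, against 169 and 160 CPM in serum. The WT groups overlapped, and the DKO-labelled day 1 libraries alone stood out.

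Slc2a1 had 219 and 212 CPM in DKO-labelled cells at day 1, against 96.9 and 103 CPM in serum (1.11 ± 0.070, adjusted p = 4.99e-08), and 59.4 and 60.0 CPM in WT cells at day 1, against 62.8 and 58.5 CPM in serum (-0.021 ± 0.073, adjusted p = 0.845). Ldha had 2082 and 1991 CPM in DKO-labelled cells at day 1, against 1303 and 1453 CPM in serum (0.56 ± 0.056), and 1233 and 1256 CPM in WT cells at day 1, against 1261 and 1248 CPM in serum (-0.011 ± 0.056). Slc2a1 and Ldha thus passed in the DKO-labelled line and did not pass in WT cells. Hk2 changed in both and in opposite directions. It had 189 and 176 CPM in DKO-labelled cells at day 1, against 113 and 113 CPM in serum (0.69 ± 0.071, adjusted p = 4.3e-06), and 54.0 and 50.2 CPM in WT cells at day 1, against 99.4 and 96.1 CPM in serum (-0.91 ± 0.074, adjusted p = 4.71e-07). Pgk1 had 210 and 207 CPM in DKO-labelled cells at day 1, against 76.4 and 77.2 CPM in serum (1.44 ± 0.075), and 98.6 and 111 CPM in WT cells at day 1, against 87.3 and 82.2 CPM in serum (0.31 ± 0.075). The WT call of Pgk1 was lost without replicate 2 of WT day 1 or of WT serum (adjusted p = 0.0939 and 0.0763). Hif1a had 349 and 345 CPM in DKO-labelled cells at day 1, against 341 and 320 CPM in serum, and 219 and 220 CPM in WT cells at day 1, against 240 and 242 CPM in serum. Its message did not pass in either line (0.070 ± 0.059 and -0.14 ± 0.059).

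The remaining DKO-labelled changes of at least 1 log2 unit that the naming rule took were Aldoc (3.82 ± 0.12), Ankrd37 (2.17 ± 0.17), Bnip3l (1.71 ± 0.082), the triose phosphate isomerase Tpi1 (1.56 ± 0.052), Kdm3a (1.52 ± 0.070) and Car9. Aldoc had 132 and 131 CPM in DKO-labelled cells at day 1, against 10.1 and 8.40 CPM in serum. Tpi1 had 1168 and 1150 CPM at day 1, against 388 and 400 CPM in serum. Car9 had 103 reads over both DKO-labelled day 1 libraries and 0 over both serum libraries, which makes it at least 38.7-fold higher at day 1 against a floor of 3 counts over the group (adjusted p = 0.000363). Day 1 libraries were the higher ones for each, which the naming rule asked for.

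**Figure D3:**
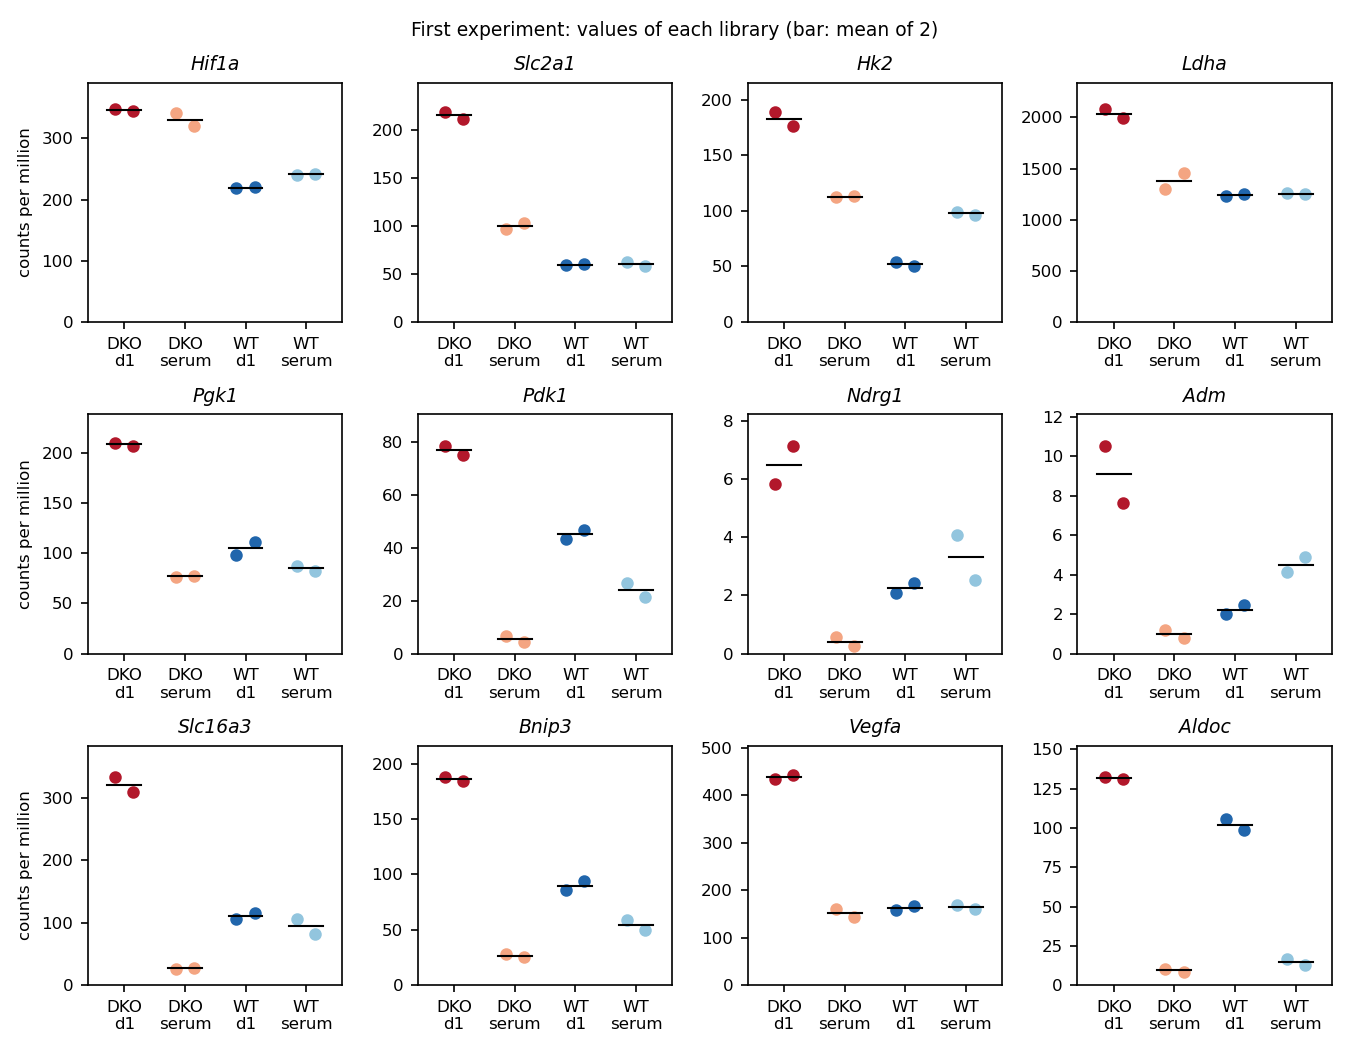
CPM of 12 member genes in the first experiment, for DKO-labelled cells at day 1 without serum and in serum and WT cells at day 1 and in serum; points are the 2 libraries of a group and bars their mean. Ndrg1, Adm, Pdk1, Slc16a3 and Bnip3 are lowest in DKO-labelled serum and highest in DKO-labelled day 1, while Hk2 is lowest in WT day 1.

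The difference between the responses was tested for every gene. It passed for 32 of 41 members, higher in DKO-labelled cells for 31 and lower for 1 (Egln2), where 9.72% of genes tested passed (5.36% higher and 4.37% lower). The median difference over members was 0.79, against 0.0027 over all genes tested. In 38 of 41 members the log2 fold change was higher in DKO-labelled cells. After Ndrg1 and Adm, the differences were widest for Slc16a3 (3.33 ± 0.15, adjusted p = 3.61e-08), Pdk1 (2.89 ± 0.21, adjusted p = 1.45e-06) and Bnip3 (2.06 ± 0.13, adjusted p = 3.75e-07). Car9 is counted here, and no value is given for it because the serum libraries of the DKO-labelled line held 0 reads. Hif1a, Arnt, Vhl, Hif1an, P4ha1, Pfkm, Pfkfb4, Ldhb and Pdk3 did not pass. The Egln2 call was lost in 5 of the 8 fits without 1 library (adjusted p = 0.0889 to 0.184), and those of Slc16a1 in 6 (0.0809 to 0.141), Car9 and Gpi1 in 4 each (0.0509 to 0.0745) and Hk1 in 3 (0.0981 to 0.113).

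**Figure D4:**
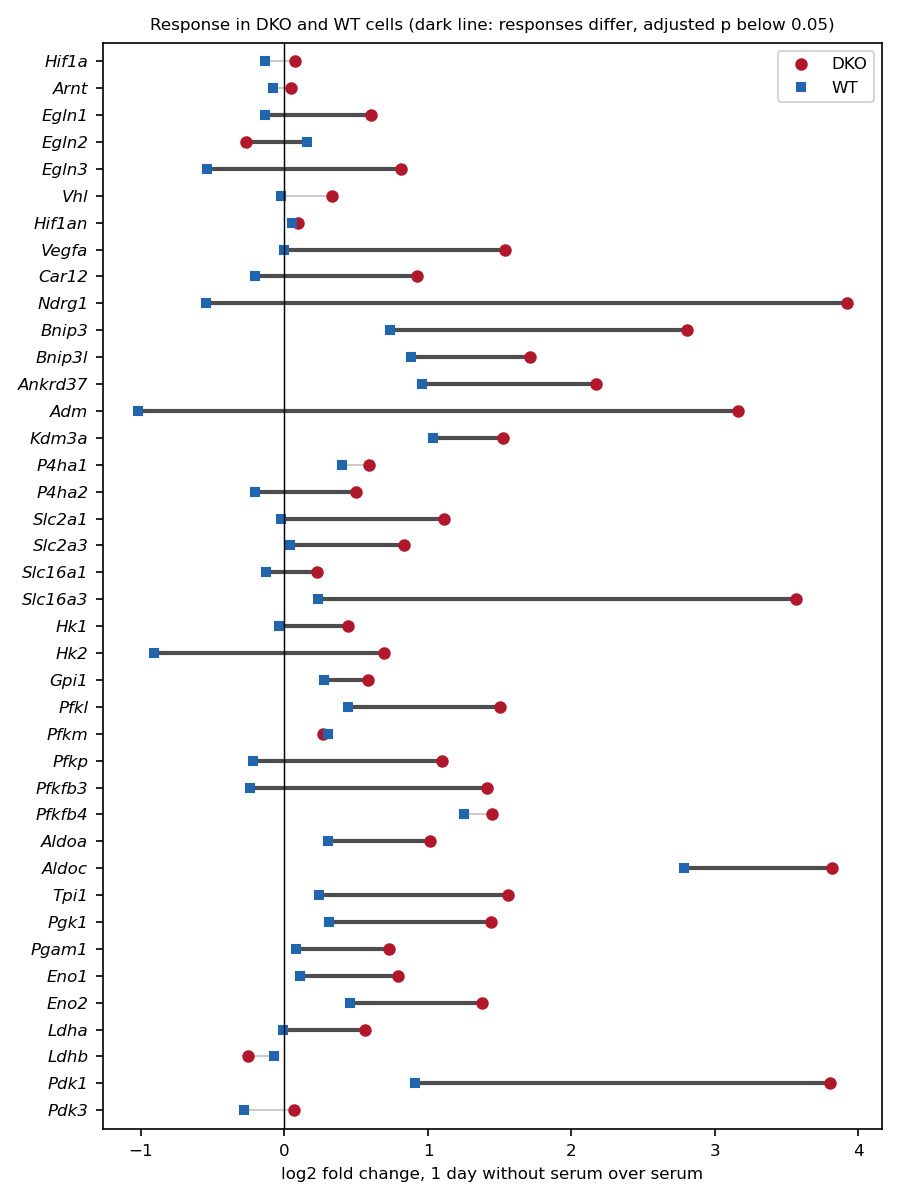
Log2 fold change of each member gene at day 1 without serum over serum, in DKO-labelled cells (red circles) and WT cells (blue squares); a dark line joins the points where the responses differed at an adjusted p below 0.05. Most circles lie right of their squares, the gap is widest for Ndrg1 and Adm, and Egln2 lies the other way. Car9 is left out because a group held 0 counts.

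The median difference between the lines had one sign in serum and the other at day 1. In serum, DKO-labelled cells had 8 members higher and 20 lower than WT cells, where 40.7% of genes tested passed (19.2% higher and 21.5% lower), and the median was -0.23. At day 1 they had 33 higher and 6 lower, where 44.9% of genes tested passed (21.9% higher and 23.0% lower), and the median was 0.66. In serum the DKO-labelled cells were lower in Ndrg1 (-2.94 ± 0.42), Adm (-2.15 ± 0.31), Pdk1 (-2.12 ± 0.16), Slc16a3 (-1.79 ± 0.11) and Bnip3 (-1.01 ± 0.092), with the per-library levels given above. They were also lower in Eno2, with 11.0 and 12.5 CPM against 32.4 and 32.9 CPM in WT serum (-1.48 ± 0.11), and in the phosphofructokinase Pfkp, with 145 and 145 CPM against 365 and 343 CPM (-1.29 ± 0.062). Pfkfb3 had 15.4 and 14.4 CPM in DKO-labelled serum, against 31.9 and 34.4 CPM in WT serum (-1.16 ± 0.11). Hk1 had 71.1 and 63.6 CPM in DKO-labelled serum, against 151 and 137.6 CPM in WT serum (-1.09 ± 0.082). The other fall past 1 log2 unit was Ldhb, with 3.90 and 2.78 CPM in DKO-labelled serum, against 6.90 and 8.18 CPM in WT serum (-1.17 ± 0.28, adjusted p = 0.00431). These differences, and the interaction term, use the WT serum libraries of the first experiment. For Ndrg1, Adm, Slc16a3 and Bnip3, WT serum of the second experiment, scaled separately, overlapped DKO-labelled serum. For Pdk1 and Eno2 it stayed above DKO-labelled serum. Levels were not tested across experiments. Hif1a (0.45 ± 0.059), Slc2a1 (0.72 ± 0.072) and Hk2 (0.21 ± 0.071) were higher in DKO-labelled serum, while Pgk1 and Ldha did not pass (-0.14 and 0.14). The Hk2 call was lost without either WT serum library (adjusted p = 0.083 and 0.19). At day 1, among genes with more than 3 reads in each line, the widest differences were in Egln3 (2.26 ± 0.071), Adm (2.02 ± 0.29), Slc2a1 (1.85 ± 0.073) and Hk2 (1.81 ± 0.074), all higher in DKO-labelled cells. Car9, with 103 reads over both DKO-labelled libraries and 2 over both WT libraries, also passed (adjusted p = 0.00137). Eno2 and Hk1 were still lower there (-0.56 ± 0.10 and -0.62 ± 0.082). The neuronal marker sum differed between the lines in the same libraries, as given above, and its part in these differences was not tested.

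In the third experiment most members were higher in pUC19-transfected cells 2 days after serum removal. Of 41 members, 32 were higher at day 2 and 2 lower (Arnt and Egln2), where 59.7% of the 12655 genes tested passed (28.4% higher and 31.3% lower). The Arnt and Egln2 calls were lost with DESeq2 (adjusted p = 0.0757 and 0.131), without the filter on low counts (0.15 and 0.189) and without 2 libraries for Arnt (0.193 and 0.349) and 3 for Egln2 (0.147 to 0.238), and that of Egln2 also with the DESeq2 size factors in edgeR (0.0606) and with unstranded counts (0.1). The median was 0.64, against -0.022 over all genes tested. In the same libraries fibroblast markers summed to 24.8 to 27.3 CPM at day 2 and 6.68 to 7.21 CPM in serum, glial markers to 9.8 to 10.7 and 4.42 to 4.87 CPM, and endothelial markers to 27.4 to 28.6 and 12.3 to 14.1 CPM. Of these lists, Col3a1 (of 5), Mog, Slc1a2 and S100b (of 7) and Cldn5 (of 5) were at 0 at day 2, and the part of these markers in the response was not tested. Aldoc had 108 and 125 CPM at day 2, against 7.70 and 9.58 CPM in serum (3.77 ± 0.13, adjusted p = 9.68e-15). Pdk1 had 62.4 and 69.3 CPM at day 2, against 7.32 and 8.56 CPM in serum (3.06 ± 0.10, adjusted p = 6.65e-15). Slc16a3 had 86.7 and 98.3 CPM at day 2, against 12.5 and 11.2 CPM in serum (2.95 ± 0.13, adjusted p = 2.31e-13). For each, both day 2 libraries were many times the serum libraries. Bnip3 had 100 and 104 CPM at day 2, against 20.5 and 19.2 CPM in serum (2.35 ± 0.075). Ankrd37 had 11.0 and 12.5 CPM at day 2, against 3.06 and 3.53 CPM in serum (1.84 ± 0.17). Bnip3l, the phosphofructokinase Pfkl, Kdm3a, Car12 and Adm were higher by 1.16 to 1.36. Car9 had 28 reads at day 2 and 0 in serum, at least 9.16-fold higher against 3 counts over the group (adjusted p = 0.000184). Slc2a1, Ldha and Hk2 were higher by less (0.60 ± 0.054, 0.29 ± 0.054 and 0.26 ± 0.062), and Hif1a did not pass (-0.13 ± 0.059, adjusted p = 0.0673). Vegfa and Ndrg1, which were higher in DKO-labelled cells at day 1 in the first experiment, did not pass here (0.13 ± 0.066 and 0.29 ± 0.28). The timing, the transfection and the library type also differed between those experiments, and the difference was not tested. Serum levels of Vegfa and Ndrg1 were already higher with pUC19 than in the untransfected group, as given below.

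Levels of Pgk1, Pgam1 and Eno1 are uncertain in the third experiment. In its untransfected serum libraries they stood at 0.0293, 0.0686 and 0.115 of their mean CPM in DKO-labelled serum of the first experiment, across tables scaled separately. The third experiment used single reads of 50 bases, against paired reads of 75 bases in the first, multimapping reads were left out of the counts, and these genes have near-identical copies. The share of multimapping reads was 16.4% to 18.5% in the third experiment and 6.77% to 7.55% in the first. Their fold changes within the third experiment (Pgk1 1.41 ± 0.18 at day 2 with pUC19) rest on the reads that could be placed.

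The untransfected group differs from the pUC19 group by its labels in transfection and in the number in its title. pUC19-transfected cells in serum differed from the serum group with no transfection named in 16 of 41 members, 4 higher and 12 lower, where 26.2% of genes tested passed (10.7% higher and 15.5% lower). Ndrg1 had 1.75 and 1.65 CPM with pUC19, against 0.105 and 0.153 CPM without (3.65 ± 0.47, adjusted p = 1.56e-05). Pgam1 had 2.40 and 2.99 CPM with pUC19, against 9.96 and 7.78 CPM without (-1.74 ± 0.21, adjusted p = 5.64e-06), with the limit just given. Vegfa was higher as well, at 222 and 228 CPM with pUC19 against 135 and 143 CPM without (0.70 ± 0.067). The count of 16 moved to 9 without replicate 1 of the untransfected group, and to 10 and 8 without replicates 1 and 2 of pUC19.

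With the miR-138 mimic, the day 2 levels of most members were below those of pUC19 cells. At day 2, 9 of 41 members were higher and 25 lower with miR-138 mimic than with pUC19, where 62.0% of genes tested passed (30.9% higher and 31.1% lower), and the median was -0.25. Of the HIF-linked genes outside glycolysis 9 of 11 were lower and 1 was higher. Ndrg1 had 0.368 and 0.216 CPM with miR-138 mimic, against 1.77 and 2.45 CPM with pUC19 (-2.78 ± 0.41, adjusted p = 7.42e-06). Car12, a carbonic anhydrase like Car9, had 65.7 and 74.0 CPM with miR-138 mimic, against 202 and 193 CPM with pUC19 (-1.50 ± 0.067, adjusted p = 8.9e-13). Egln3 had 101 and 97.7 CPM with miR-138 mimic, against 264 and 228 CPM with pUC19 (-1.31 ± 0.063, adjusted p = 2.04e-12). All were lower in each mimic library. Slc2a1 had 71.8 and 76.6 CPM with miR-138 mimic, against 155 and 154 CPM with pUC19 (-1.06 ± 0.055, adjusted p = 6.35e-12). Eno1 was lower too (-1.03 ± 0.078), with the limit on its reads given above. Car9 had 0 reads in both miR-138 mimic libraries and 28 over both pUC19 libraries, at least 8.91-fold lower (adjusted p = 0.000185). Hif1a, Ldha, Pdk1, Pgk1 and Hk2 were lower by less (-0.21 to -0.41). The Hk2 call was lost without replicate 1 of pUC19 (adjusted p = 0.171), and that of Pgk1 with DESeq2, without replicate 1 of the mimic and without either pUC19 library (adjusted p = 0.0699 to 0.186). Higher with miR-138 mimic were Arnt, Egln2, Vhl, P4ha2, Slc2a3, Pfkm, Pfkfb4, Ldhb and Pdk3, of which Ldhb moved most (0.95 ± 0.15). The Arnt call was lost without the filter on low counts (adjusted p = 0.156) and that of Pfkfb4 with DESeq2 (0.0696). Without replicate 2 of the mimic the log2 fold changes of Arnt and Pfkfb4 were 0.11 and 0.26, against 0.16 and 0.40. Without replicate 1 of the mimic those of Pfkfb3 and Pfkl were -0.18 and -0.11, against -0.26 and -0.18.

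Before serum removal 13 members were higher and 10 lower with miR-138 mimic than with pUC19, where 56.0% of genes tested passed (28.7% higher and 27.3% lower). The share of members called, 56.1%, was near that of all genes, and the median was 0.017, against 0.028 over all genes tested. Ndrg1 had 0.0788 and 0.185 CPM with miR-138 mimic, against 1.75 and 1.65 CPM with pUC19 (-3.60 ± 0.43, adjusted p = 8.21e-07). That is near its level in the untransfected group. Aldoc had 16.97 and 17.9 CPM with miR-138 mimic, against 7.70 and 9.58 CPM with pUC19 (1.04 ± 0.15). Pdk1 had 16.6 and 15.3 CPM with miR-138 mimic, against 7.32 and 8.56 CPM with pUC19 (1.02 ± 0.12). Hif1a was lower in serum, with 374 and 346 CPM with miR-138 mimic, against 614 and 558 CPM with pUC19 (-0.70 ± 0.059, adjusted p = 6.98e-09). Slc2a1 and Ldha were also lower (-0.46 ± 0.055 and -0.21 ± 0.054), Hk2 was higher (0.26 ± 0.061) and Pgk1 did not pass.

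The response to serum removal differed between miR-138 mimic and pUC19 in 22 members, higher in 2 (Hif1a and P4ha2) and lower in 20, where 27.8% of genes tested passed (13.3% higher and 14.5% lower). Among cells given miR-138 mimic, 23 of 41 members were higher at day 2 than in serum and 6 lower, where 63.3% of genes tested passed (31.1% higher and 32.2% lower), and the median was 0.30. The lower calls of Vegfa and Slc16a1 were lost with DESeq2 (adjusted p = 0.0638 and 0.107). DESeq2 size factors in edgeR lost them too (0.0541 and 0.0982). The higher call of Hif1an was lost without the filter on low counts (0.0972). Without replicate 2 of the mimic in serum the Hk2 change was -0.17, against -0.20. Of the response differences, that of Pfkp was lost with DESeq2 (0.063), and those of Pfkp and Tpi1 with its size factors (0.0508 and 0.0528). Pdk1 had 46.4 and 52.5 CPM at day 2 with miR-138 mimic, against 16.6 and 15.3 CPM in serum, a response of 1.63 ± 0.090 that was 1.43 ± 0.14 smaller than with pUC19 (adjusted p = 4.56e-07). Egln3, Aldoc, Car12 and Slc16a3 had responses that differed by -1.17 ± 0.087, -1.12 ± 0.18, -1.09 ± 0.095 and -1.06 ± 0.18. Aldoc started higher with the mimic and reached a like level at day 2, at 95.4 and 124 CPM with miR-138 mimic and 108 and 125 CPM with pUC19. Slc2a1 did not pass with the mimic (0.0047 ± 0.056). Fibroblast markers summed to 36.6 to 37.2 CPM at day 2 with miR-138 mimic and 24.8 to 27.3 CPM with pUC19, and glial markers to 17.4 to 18.7 and 9.8 to 10.7 CPM. Their part in these results was not tested.

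With miR-137 mimic the median difference from pUC19 at day 2 had the other sign, and fewer members passed. Some members moved alike with both mimics: Slc2a3, P4ha2, Arnt and Pdk3 were higher, and Car12 and Hk2 lower. With miR-137 mimic the changes of Arnt, Pdk3 and Hk2 were small (0.18, 0.24 and -0.22). The Arnt call was lost without the filter on low counts (adjusted p = 0.0507). Without replicate 2 of pUC19 the changes of Arnt and Pdk3 were 0.14 and 0.19. Without replicate 1 of pUC19 that of Hk2 was -0.12. At day 2, 20 members were higher and 6 lower with miR-137 mimic than with pUC19, where 42.7% of genes tested passed (20.5% higher and 22.2% lower), and the median was 0.19. The 26 calls became 17 without replicate 2 of miR-137 mimic at day 2. Ndrg1 had 4.89 and 6.10 CPM with miR-137 mimic, against 1.77 and 2.45 CPM with pUC19 (1.39 ± 0.24, adjusted p = 8.56e-05). Pfkfb3 had 59.5 and 55.4 CPM with miR-137 mimic, against 25.2 and 28.8 CPM with pUC19 (1.09 ± 0.085, adjusted p = 4.81e-09). Pfkp had 293 and 295 CPM with miR-137 mimic, against 139 and 141 CPM with pUC19 (1.07 ± 0.059, adjusted p = 4.02e-11). These 3 were higher in each mimic library. Car9 had 1.71 and 2.54 CPM with miR-137 mimic, against 1.00 and 0.748 CPM with pUC19 (1.27 ± 0.40, adjusted p = 0.0167), a call lost with DESeq2 and without replicate 2 of either group (adjusted p = 0.195, 0.197 and 0.0967). Ldhb was lower, with 2.87 and 3.49 CPM with miR-137 mimic, against 6.73 and 6.12 CPM with pUC19 (-1.01 ± 0.19, adjusted p = 0.000202). Ldha, Pdk1 and Pgk1 did not pass (0.080, 0.19 and 0.33).

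In serum, 15 members were higher and 9 lower with miR-137 mimic than with pUC19, where 45.6% of genes tested passed (23.1% higher and 22.5% lower). Aldoc had 3.39 and 2.78 CPM with miR-137 mimic, against 7.70 and 9.58 CPM with pUC19 (-1.46 ± 0.23). Bnip3l had 10.0 and 10.1 CPM with miR-137 mimic, against 26.5 and 22.7 CPM with pUC19 (-1.30 ± 0.13). Slc16a3 had 31.2 and 26.7 CPM with miR-137 mimic, against 12.5 and 11.2 CPM with pUC19 (1.28 ± 0.14). The serum levels of members thus moved both ways. At day 2, 33 of 41 members were higher than in serum with miR-137 mimic and 3 lower, where 65.8% of genes tested passed (33.2% higher and 32.6% lower), and the median was 0.86. The response differed from that with pUC19 in 14 members, 9 higher and 5 lower, where 23.3% of genes tested passed (11.9% higher and 11.4% lower). The widest differences were in Ndrg1 (2.37 ± 0.42, adjusted p = 0.000363), Adm (1.50 ± 0.39, adjusted p = 0.00902), Pfkfb3 (1.34 ± 0.13, adjusted p = 4.62e-07) and Bnip3l (1.12 ± 0.16, adjusted p = 4.41e-05). The Adm call was lost without replicate 2 of miR-137 mimic in serum or replicate 1 of pUC19 in serum (adjusted p = 0.0721 and 0.135). Without replicate 1 of miR-137 mimic in serum the count of members was 9. Neuronal markers summed to 281 to 301 CPM with miR-137 mimic at day 2, the highest of the third experiment, and their part in these results was not tested. The mimics shared their pUC19 libraries, so their comparisons are not independent of each other.

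**Figure D5:**
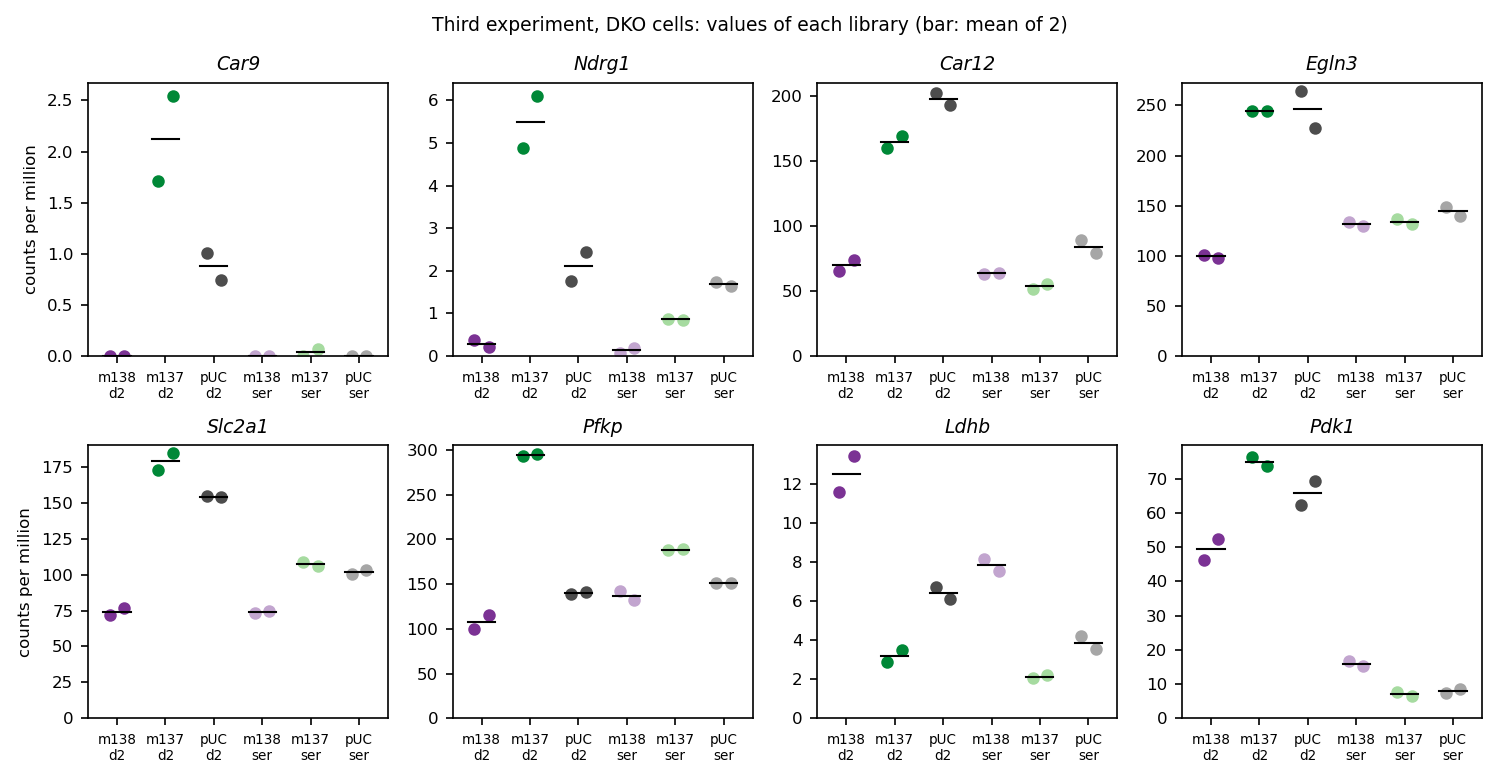
CPM of 8 member genes in DKO-labelled cells of the third experiment, at day 2 without serum with the mimic of miR-138 (m138), that of miR-137 (m137), or pUC19, then in serum in the same order; points are the 2 libraries of a group and bars their mean. Among the day 2 groups, Car9, Ndrg1, Car12, Egln3 and Slc2a1 are lowest with miR-138 mimic, Pfkp is highest with miR-137 mimic, and Ldhb is highest with miR-138 mimic.

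Across all 6 withdrawal comparisons 14 members were higher each time: Bnip3, Bnip3l, Ankrd37, Kdm3a, P4ha1, Gpi1, Pfkl, Pfkm, Pfkfb4, Aldoc, Tpi1, Pgk1, Eno2 and Pdk1. That is 34.1% of the 41 tested, against 8.82% of the 12136 genes tested in all 3 RNA-seq experiments. The list was made with earlier results of these data known, so these shares are not a test of it. The comparisons with pUC19, miR-138 mimic and miR-137 mimic used separate libraries but 1 experiment. The 14 are mitophagy receptors, an ankyrin repeat gene, a demethylase, a collagen hydroxylase subunit, and enzymes of glycolysis and its exit. A further 5, Egln1, Adm, P4ha2, Slc2a3 and Slc16a3, were higher in every comparison except WT day 1, which is 12.2% of members and 1.39% of those genes. Some of these calls were lost without 1 library: P4ha2 in pUC19 cells (adjusted p = 0.168 and 0.482, and 0.0577 with unstranded counts), Adm (0.131 and 0.152) and P4ha1 (0.0727) in miR-138 mimic cells, Pfkm in DKO-labelled cells at day 1 and Pgk1 in WT cells at day 1. Arnt, Egln2 and Pdk3 were higher in none, 7.32% of members tested against 45.4% of genes, and Epas1 was not tested. The WT day 4 and DKO-labelled day 1 comparisons, from separate libraries, had 30 higher members in common, which is 100% of the first and 85.7% of the second. Hk2 and Slc16a1 were called in opposite directions in them. WT day 4 and WT day 1 had 15 in common, 50.0% of the first and 100% of the second, with Adm, Car12, Egln3, P4ha2 and Pfkp called in opposite directions. In the WT day 1 comparison the calls of Adm, Car12, P4ha2 and Pfkp were each lost without 1 library or more.

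Other genes of the pathway were read from lists of known members. Of 41 further HIF-linked genes tested in WT cells at day 4, 33 were higher and 6 lower, with a median of 1.24, where 36.2% of all genes tested were higher and 34.7% lower. They included Narf (2.96 ± 0.13), Pygl, which releases glucose units from glycogen (2.92 ± 0.14), Wsb1 (1.80 ± 0.078) and Mxi1, a Myc antagonist (1.73 ± 0.087). At day 1, 29 of 40 were higher and 2 lower in DKO-labelled cells, and 14 were higher and 10 lower in WT cells, where 19.9% of all genes were higher and 20.4% lower in DKO-labelled cells, and 20.4% higher and 20.3% lower in WT cells. The responses differed for 24 of them, higher in DKO-labelled cells for 21 and lower for 3, against 5.36% and 4.37% of all genes, among them the mitochondrial protein gene Fam162a, which averaged 150 ± 4.64 CPM in DKO-labelled cells at day 1 and 63.8 ± 1.53 CPM in serum, and 74.2 ± 5.23 CPM in WT cells at day 1 and 78.4 ± 0.268 CPM in serum (SD, n = 2 each). Genes of the citric acid cycle, which burns what glycolysis delivers, were mostly lower without serum. In WT cells at day 4, 17 of 18 were lower and none higher, with a median of -0.85, against 34.7% of all genes lower. Idh3a averaged 51.2 ± 4.83 CPM at day 4 and 192 ± 9.66 CPM in serum (SD, n = 3 each), and citrate synthase, Cs, averaged 267 ± 19.4 CPM at day 4 and 673 ± 11.4 CPM in serum. At day 1, 14 of 18 were lower and 1 higher in DKO-labelled cells and 10 were lower in WT cells, and the responses differed for 1 gene. With miR-138 mimic at day 2, 11 were higher and 2 lower than with pUC19, where 30.9% of all genes were higher and 31.1% lower. All 7 genes of the pentose phosphate pathway were lower in WT cells at day 4 (Taldo1 -1.12 ± 0.094, Tkt -0.73 ± 0.067), while at day 1 in DKO-labelled cells 3 were higher and 1 lower, and in WT cells 2 were higher and 3 lower. Glycolysis genes outside the members, among them Gapdh, Pkm and enzymes of the reverse steps, were counted as well. Of 11 tested in WT cells at day 4, 2 were higher and 3 lower, with a median of -0.015, and of 13 tested at day 1, 4 were higher and 4 lower in DKO-labelled cells and 2 higher and 4 lower in WT cells. Of 11 genes of lactate, pyruvate entry and its control, 4 were higher and 7 lower in WT cells at day 4, with a median of -0.60. At day 1, 2 of these were higher and 6 lower in DKO-labelled cells, and 1 was higher and 4 lower in WT cells.

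Reported targets of miR-210 were read in WT cells of the second RNA-seq experiment. Their day 4 is the time at which the microRNA was 17.7-fold higher in the small RNA experiment. Whether the cells of these experiments were the same clone or passage is not known. Of 21 tested, 8 were higher and 10 lower at day 4, with a median of -0.11, against 0.043 over all genes tested, where 34.7% of genes tested were lower. Sdhd, a subunit of succinate dehydrogenase, averaged 60.9 ± 3.66 CPM at day 4 and 174 ± 11.6 CPM in serum (SD, n = 3 each; log2 fold change -1.51 ± 0.083, adjusted p = 1.83e-09). Ndufa4, a respiratory chain subunit, was lower as well (-1.32 ± 0.092), and Sdhd is also one of the citric acid cycle genes counted above. Efna3, an ephrin ligand often named as a miR-210 target, averaged 38.2 ± 1.27 CPM at day 4 and 6.35 ± 0.939 CPM in serum, a rise of 2.59 ± 0.15 (adjusted p = 2.74e-09). The transferrin receptor Tfrc was higher too (1.45 ± 0.11). The list thus held members that moved each way.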

How the data were processed

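The authors deposited raw read counts, as whole numbers, in 1 table per library: counts per microRNA for small RNA and STAR counts per gene for RNA-seq. The submitters' processing notes name cutadapt, BWA, STAR, DESeq, DESeq2 and mm9; their versions are not given in these sources. The unassigned entry of the microRNA tables (34.1% to 49.2% of reads) was left out. The RNA-seq libraries were stranded (dUTP or TruSeq) per the labels' protocols, so column 4 was used; column 3 held 3.18% to 3.81% of the reads assigned on either strand. Symbols matched 32620 of 37310 gene IDs.

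Each experiment was fitted alone in R 4.3.3 with edgeR 4.0.16 (TMM scaling, filterByExpr with a minimum count of 10 and a total of 15, quasi-likelihood test, Benjamini-Hochberg threshold 0.05), giving 17 comparisons, of which 3 were interaction terms. This left 715 microRNAs and 13630, 13283 and 12655 genes, with 43 of 44 members. CPM use TMM-scaled library sizes. The fits were tested on simulated data. The members and all lists were chosen with earlier results of these data known. Genes given with full values passed the threshold, changed by at least 1 log2 unit and did not overlap between groups (at most 12 a comparison); Hif1a, Slc2a1, Hk2, Ldha, Pgk1 and Pdk1 were always named, and others were named after their values were seen. From further lists the 4 genes with the lowest adjusted p were eligible. Alternatives were DESeq2 1.42.0, its size factors in edgeR, no filter, unstranded counts, replicate number as a block, and each library left out. The design text gives mimics in triplicate and the protocol in duplicate; 2 libraries a group were analysed. Python 3.11.15, pandas 2.3.3 and matplotlib 3.10.9 made tables and figures. No genome was used; sequences are RefSeq's for GRCm38.p6.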

Additional observations from a re-analysis of the deposited data

Results flagged for a closer look

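The response to serum withdrawal at day 1 differed between DKO-labelled and WT cells, by the interaction term, for 32 members, where 9.72% of genes tested passed. The difference in log2 fold change, DKO-labelled minus WT, was 4.47 for Ndrg1, 4.18 for Adm, 3.33 for Slc16a3, 2.89 for Pdk1 and 2.06 for Bnip3. Among the other glycolytic members it was 1.66 for Pfkfb3, 1.60 for Hk2, 1.32 for Pfkp, 1.32 for Tpi1, 1.13 for Pgk1, 1.06 for Pfkl and 1.03 for Aldoc. It was 1.54 for Vegfa, 1.35 for Egln3, 1.21 for Ankrd37, 1.13 for Car12 and 1.13 for Slc2a1. Adm, Car12, Egln3, Hk2, P4ha2 and Pfkp passed in both lines with opposite signs, and the WT calls of Adm, Car12, P4ha2 and Pfkp were lost without 1 library or more.

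The response at day 2 differed between miR-138 mimic and pUC19 for 22 members, where 27.8% of genes tested passed. The difference, miR-138 mimic minus pUC19, was -1.43 for Pdk1, -1.17 for Egln3, -1.12 for Aldoc, -1.09 for Car12 and -1.06 for Slc16a3. Between miR-137 mimic and pUC19 the response differed for 14 members, where 23.3% of genes tested passed. That difference, miR-137 mimic minus pUC19, was 2.37 for Ndrg1, 1.50 for Adm, 1.34 for Pfkfb3 and 1.12 for Bnip3l. Each of these was a test of the difference between responses in the experiment's own fit.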

How the results depend on the processing

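Of 4395 values of called members under alternatives, 4115 stayed past the threshold, 280 did not, and 0 changed sign. The miR-210 log2 fold changes ranged over alternatives from 3.87 to 4.21 for the 3p arm and from 3.60 to 4.11 for the 5p arm, both always past the threshold. Leaving out 1 library at a time moved the count of members called from 26 to between 17 and 24 for miR-137 mimic over pUC19 at day 2, from 16 to between 8 and 11 for pUC19 over untransfected cells, and from 14 to between 9 and 14 for the miR-137 interaction. With 2 libraries a group, a lone library is then assumed to vary like the other groups. Over all features, the counts called moved by over 1.5 times when a library was left out: 256 microRNAs became 154 to 399, the 1325 genes of the DKO-labelled minus WT interaction 615 to 2602, and the 3321 genes of pUC19 over untransfected 1730 to 2764. Replicate numbers were not used to pair libraries in the main fits. Same-numbered libraries had deviations correlated at -0.419 to 0.0873 in small RNA, and 0.0104 to 0.0456, -0.0262 to 0.0254 and -0.187 to 0.0964 in the RNA-seq experiments. These values cannot settle whether numbers mark pairs, since with 2 libraries a group the deviations mirror each other. With the replicate block, 34 members were called in WT day 4, 23 in WT day 1, 36 in DKO-labelled day 1, 32 in the interaction and 36 in pUC19 day 2. Low-count members (Car9, Ndrg1, Adm, Epas1) are limited by depth.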

Other observations

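Serum levels of several members in WT cells differed between the RNA-seq experiments, which were scaled separately and not tested against each other. Slc16a3 had 106 and 81.8 CPM in the first experiment and 36.2, 21.0 and 30.1 CPM in the second. Vegfa had 169 and 160 CPM in the first and 101, 90.1 and 89.9 CPM in the second, Pdk1 had 26.8 and 21.4 CPM in the first and 14.3, 12.0 and 13.1 CPM in the second, and Adm had 4.12 and 4.90 CPM in the first and 1.23, 0.783 and 1.68 CPM in the second. By the serum values given above, Ndrg1 and Bnip3 were also higher in the first, while Eno2 was close in both. The WT day 1 comparison rests on the higher of these serum levels. So do the comparison of DKO-labelled with WT cells in serum and the interaction term.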
